A study of Rattus norvegicus with 172 samples.

Results

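The genes described here encode the proteins that fill, dock, prime, fuse and recover synaptic vesicles. A list of 43 such genes was matched by symbol to the probe sets of a rat expression array, and 42 of the 43 had a probe set of that symbol alone, the exception being Doc2a. Of these 42, 34 passed a filter on dim signals and were tested among 10759 genes in all. The other 8 (Sv2c, Syngr1, Syt2, Syt7, Syt13, Rph3a, Unc13a and Pclo) lay above the median of their own array in at most 5 of 164 rats and were not tested. Where a gene had several probe sets, the brightest on average stood for it. The genes were grouped by role into vesicle proteins, calcium sensors, SNARE proteins and their complexins, SNARE recycling factors, active zone proteins, glutamate transporters and endocytic proteins.

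A synaptic vesicle is filled with transmitter by a transporter, held in reserve by synapsins, and brought to the active zone by Rab3 proteins and scaffolds such as bassoon and RIM. Fusion is driven by the pairing of a vesicle SNARE (Vamp1 or Vamp2) with the membrane SNAREs Stx1a and Snap25, held ready by complexins and set off by synaptotagmins that bind calcium. Afterwards NSF and its adaptors, the SNAP proteins Napa and Napb, take the SNAREs apart, and dynamin and clathrin adaptors recover the vesicle. Dentate granule cells send mossy fibres to area CA3, whose large terminals hold glutamate vesicles and are known to remodel in epilepsy.

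Laser capture took the granule cell layer out of 10 µm brain sections of male Sprague-Dawley rats of 175 to 250 g, and RNA was measured on 172 one-colour arrays from 164 rats. The rats came from 7 laboratories and 4 models, with controls and 3 times or stages from every laboratory, 28 groups in all. In the pilocarpine model (laboratories A and B, 48 rats) 300 to 350 mg/kg pilocarpine, a cholinergic agonist, started status epilepticus, a continuous seizure. It was ended after 90 min with 25 mg/kg pentobarbital, and every rat of this model, controls included, had received 1 mg/kg methylscopolamine, while controls received saline in place of pilocarpine. In the kainate model (laboratories A and B, 48 rats) kainic acid, a glutamate receptor agonist, was given hourly at 5 mg/kg until status epilepticus began, and controls received saline. Laboratory A let it end by itself after 6 to 8 h, and laboratory B started with 7.5 mg/kg and stopped it after 90 min. A single laboratory supplied SSSE, short for self-sustaining status epilepticus, with 5 control, 6 day 1, 5 day 3 and 4 day 10 rats. Kindling, where stimuli given again and again evoke ever stronger seizures, was done in laboratories A and B (48 rats) and sampled at stages 2, 4 and 5. Groups other than those of SSSE held 6 rats, and the stimulation used for SSSE and kindling is not given in the sources used here.

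The values are log2(signal + 16) of MAS5 signal intensities, and the median of an array lay between 5.46 and 6.05 on this scale. Levels are compared only within a probe set, not between genes. The granule cell markers Prox1, Calb1 and C1ql3 were above the array median in 164 of 164 rats. The labels of 2 rats contradicted themselves. SSSE day 1 rat 3 has day 1 in its title but control as its source and harvest time, and was kept at day 1 by its title. The labels of kindling A stage 2 rat 4 name kainate as the model throughout, and it was put with kindling because it carries a kindling stage and comes from a laboratory whose other rats were all kindled. Without these 2 rats the SSSE day 1 count was 5 as with them, kindling stage 2 gave 0 as with them, and SSSE day 10 against day 1 gave 0 in place of 3. A non-member, Plk5, read 5.06 in SSSE day 1 rat 3, 9.01 to 9.84 in SSSE controls and 4.19 to 8.43 in the other day 1 rats. SSSE day 3 rat 4 and pilocarpine B day 10 rats 1, 2 and 3 carried a day 1 pattern over genes outside the set, scored at 1.08 to 1.13 where 1 is the mean day 1 change of the model. Each array read RNA from many cells cut together, so fewer cells of a type and less RNA per cell cannot be told apart.

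One day after status epilepticus the release genes split. Synpr, Rab3a, Cplx2, Napa and Dnm1 fell and Vamp1 rose in both drug models, and of these only Napa was also called in SSSE. A change passed when its p from limma, adjusted over 10759 genes by the Benjamini-Hochberg method, was under 0.05, and ± gives the standard error of the fit. In the pilocarpine model (12 day 1 rats against 12 controls) 2 of 34 release genes rose and 5 fell, or 20.6%, where 32.1% of all genes tested passed (15.8% higher, 16.3% lower). In the kainate model (12 against 12) 6 rose and 9 fell, or 44.1%, where 41.6% of all genes passed (22.2% higher, 19.4% lower). In SSSE (6 against 5) 3 rose and 2 fell, or 14.7%, where 12.5% passed (5.51% higher, 7.02% lower). These shares lay below, near and near the background, and the median changes of the 34 genes were 0.02, -0.01 and 0.08, where those of all genes were 0.00, 0.02 and 0.00.

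Over the 3 day 1 comparisons 9 release genes were called lower at least once, 7 were called higher at least once, and none was called in opposite directions. Napa was the only one called lower in all 3. In SSSE the mean also went from 10.79 in controls to 10.32 at day 1 for Synpr, from 10.16 to 9.78 for Cplx1 and from 10.49 to 10.18 for Rab3a. For each of these genes 4 of 6 rats lay below every control, but none of them passed there. After kainate the largest falls were Synpr (-1.0 ± 0.16), Syt4 (-0.92 ± 0.12), Rab3a (-0.75 ± 0.08), Napa (-0.67 ± 0.08) and Cplx1 (-0.65 ± 0.09). The largest rises there were Vamp1 (0.60 ± 0.09), Syn1 (0.43 ± 0.15), Syt5 (0.39 ± 0.12), Syn2 (0.26 ± 0.11) and Syp (0.19 ± 0.06). After pilocarpine the falls were Synpr (-1.19 ± 0.15), Rab3a (-0.79 ± 0.19), Cplx2 (-0.78 ± 0.24), Napa (-0.64 ± 0.15) and Dnm1 (-0.47 ± 0.13), and the rises Vamp1 (0.69 ± 0.15) and Napb (0.31 ± 0.12). In SSSE Syt17 (-0.49 ± 0.14) and Napa (-0.36 ± 0.11) fell while Syn1 (0.64 ± 0.13), Syt5 (0.57 ± 0.15) and Syn2 (0.35 ± 0.08) rose.

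**Figure D1:**
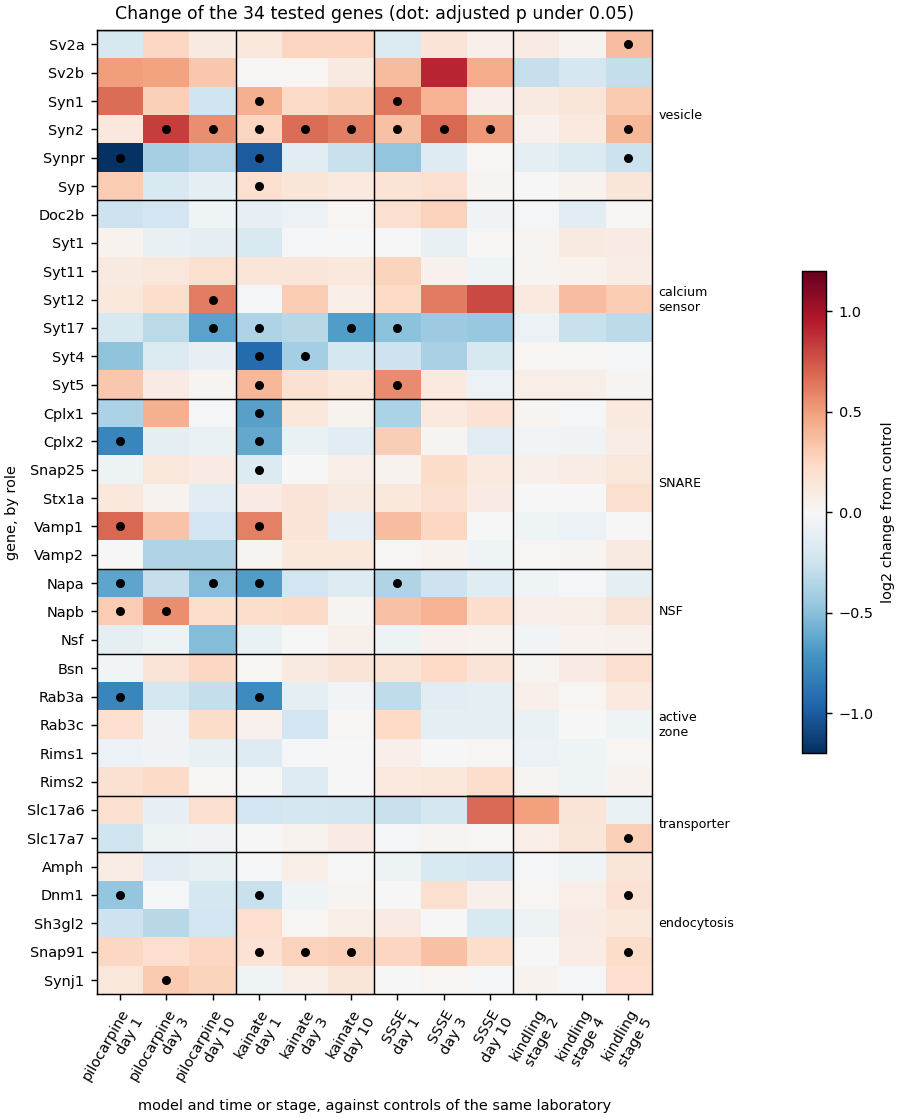
Log2 change from controls of the same laboratory (colour, red higher and blue lower) for the 34 tested release genes, in rows by role, in 12 comparisons (columns), with a dot where the adjusted p was under 0.05. Synpr, Rab3a and Napa are blue and Vamp1 red at day 1 of pilocarpine and kainate, while the Syn2 row holds 9 dots.

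Marker genes of the cell types moved at the same time. Of 6 tested granule cell markers (8 listed), 6 fell at day 1 of pilocarpine, 6 at day 1 of kainate and 4 at day 1 of SSSE. The summed signal of the 7 listed granule cell genes with a probe set was 6865 to 11913 in pilocarpine controls and 3250 to 6661 at day 1, and 6806 to 9476 in kainate controls and 3095 to 4969 at day 1. Of 8 tested microglial markers (10 listed), 4 rose at day 1 of pilocarpine and 5 at day 1 of kainate. Sums over all 10 were 246 to 354 in pilocarpine A controls and 272 to 557 at day 1, which overlap. In pilocarpine B they were 171 to 323 in controls and 346 to 516 at day 1, without overlap. In kainate they overlapped in both laboratories, at 131 to 340 and 222 to 430 in A and 235 to 317 and 181 to 440 in B. Among 7 tested astrocyte markers (8 listed), 5 fell and 1 rose at day 1 in each drug model. Sums over all 8 were 4912 to 10940 in pilocarpine A controls and 1832 to 4717 at day 1, without overlap. In pilocarpine B they were 3707 to 5505 in controls and 1690 to 7060 at day 1, which overlap. In kainate they overlapped in both laboratories, at 4115 to 6331 and 3988 to 6103 in A and 4338 to 6003 and 3182 to 4585 in B. In SSSE the granule cell sums were 7300 to 9164 in controls and 3993 to 6531 at day 1, while 4 of 7 astrocyte markers fell, 1 rose and 0 of 8 microglial markers passed there. Markers listed for other neurons moved as well. Of 6 tested pyramidal and mossy cell markers (8 listed), 3 fell at day 1 of kainate, namely Nrgn, Neurod6 and Calb2. At day 1 of pilocarpine 1 fell and 1 rose, and 1 fell at day 1 of SSSE. Sums over all 8 were 2249 to 2740 in kainate A controls and 1192 to 1908 at day 1, and 1719 to 2724 in kainate B controls and 692 to 1062 at day 1, with no overlap in either laboratory. These sums largely follow Nrgn, whose log2 signal averaged 10.93 in controls, where each of the others averaged 6.23 or less. Of 8 tested interneuron markers (9 listed), 1 rose and 1 fell at day 1 in each model of status epilepticus, and the riser was Npy (3.21 ± 0.35 after kainate). Sums over all 9 were 2796 to 4530 in kainate B controls and 4833 to 10102 at day 1, again without overlap, and 2706 to 3469 against 2917 to 5305 in laboratory A, which overlap. They include the riser Npy, and sums without Npy were not taken. No marker was listed at a signal of 0, and the microglial marker Itgam was above the array median in no rat. Array measures moved too in some groups: the median signal was 36.4 in pilocarpine A day 1 rats and 42.7 in their controls, and the Gapdh ratio of 3' over 5' probe sets, in log2, was 1.12 in kainate A day 1 rats and 1.52 in their controls. Neither passed over the 63 array measures tested by exact permutation (adjusted p = 0.136 and 0.375). The part of these markers and measures in the day 1 changes was not tested.

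Among the vesicle proteins, Synpr (synaptoporin, a membrane protein of the synaptophysin family that is abundant in mossy fibre terminals) had the largest falls. In pilocarpine laboratory A its log2 signal was 10.15, 10.19 and 10.42 (lowest, median and highest) in controls and 8.64, 9.0 and 9.57 at day 1. Laboratory B read 9.92, 10.19 and 10.37 in controls and 8.42, 8.98 and 9.94 at day 1. Thus 11 of 12 day 1 rats lay below every control of their laboratory, and the mean fell to 0.44 of control on the scale of signal + 16 (adjusted p = 8.2e-08). For kainate the controls of laboratory A read 10.39, 10.67 and 10.90 and the day 1 rats 9.24, 9.58 and 9.63. The groups did not overlap in laboratory A, while in laboratory B 1 day 1 rat, at 10.78, lay above the highest control at 10.34. At kindling stage 5 Synpr was lower by a smaller amount (-0.26 ± 0.07, adjusted p = 0.014), with 8 of 12 rats below the range of their controls. A second Synpr probe set fell at day 1 of pilocarpine (-0.85, adjusted p = 0.00031) but missed the threshold at day 1 of kainate (-0.37, adjusted p = 0.055) and at stage 5 (-0.39, adjusted p = 0.059).

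Syn2, a synapsin that ties vesicles to the cytoskeleton, was higher in 9 of 12 comparisons with control, 8 of them among the 9 after status epilepticus. In SSSE the 5 controls read 10.15, 10.16, 10.23, 9.96 and 10.13, and the 5 day 3 rats read 10.72, 10.86, 10.68, 10.86 and 10.94. Its 4 day 10 rats read 10.59, 10.57, 10.67 and 10.76, and the day 1 rats lay between 10.30 and 10.73 with a median of 10.47. Every SSSE rat after the seizure was above every control, with changes of 0.35 ± 0.08 at day 1, 0.69 ± 0.08 at day 3 and 0.52 ± 0.09 at day 10. On day 3 of pilocarpine the lowest, median and highest were 9.42, 9.80 and 10.13 against 8.93, 9.07 and 9.19 in controls of laboratory A, and 10.48, 10.77 and 10.96 against 9.48, 9.74 and 10.02 in laboratory B. All 12 of these rats were above their controls, and the change was 0.83 ± 0.18. Later changes were 0.56 ± 0.18 at day 10 of pilocarpine, 0.67 ± 0.11 and 0.62 ± 0.11 at days 3 and 10 of kainate, and 0.40 ± 0.08 at kindling stage 5. Rats of the pilocarpine model went both ways at the other times. At its day 10 9 of 12 lay above and 3 below their controls. At its day 1, where Syn2 did not pass, 6 lay above and 5 below. The rise is that of 1 probe set: 2 dimmer Syn2 probe sets passed in none of the 12 comparisons with control, in a fit over 14281 probe sets. One of them changed by 0.03 at day 3 of pilocarpine (adjusted p = 0.96) and by -0.27 at day 3 of SSSE (adjusted p = 0.70), and the other by 0.28 and 0.16 there (adjusted p = 0.17 and 0.39). With the mean of a gene's probe sets, Syn2 missed the threshold in all 3 SSSE comparisons (adjusted p = 0.296, 0.427 and 0.756), at day 1 of kainate (0.142) and at day 10 of pilocarpine (0.132). The day 1 kainate call ended under several settings (adjusted p up to 0.142), and the SSSE day 10 call without day 10 rat 6 (0.0511) and in a fit over all 28 groups (0.698). The pilocarpine day 10 call also ended under quantile normalization (0.0613), with a pseudocount of 1 (0.0538) and with no filter on dim signals (0.0587).

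**Figure D2:**
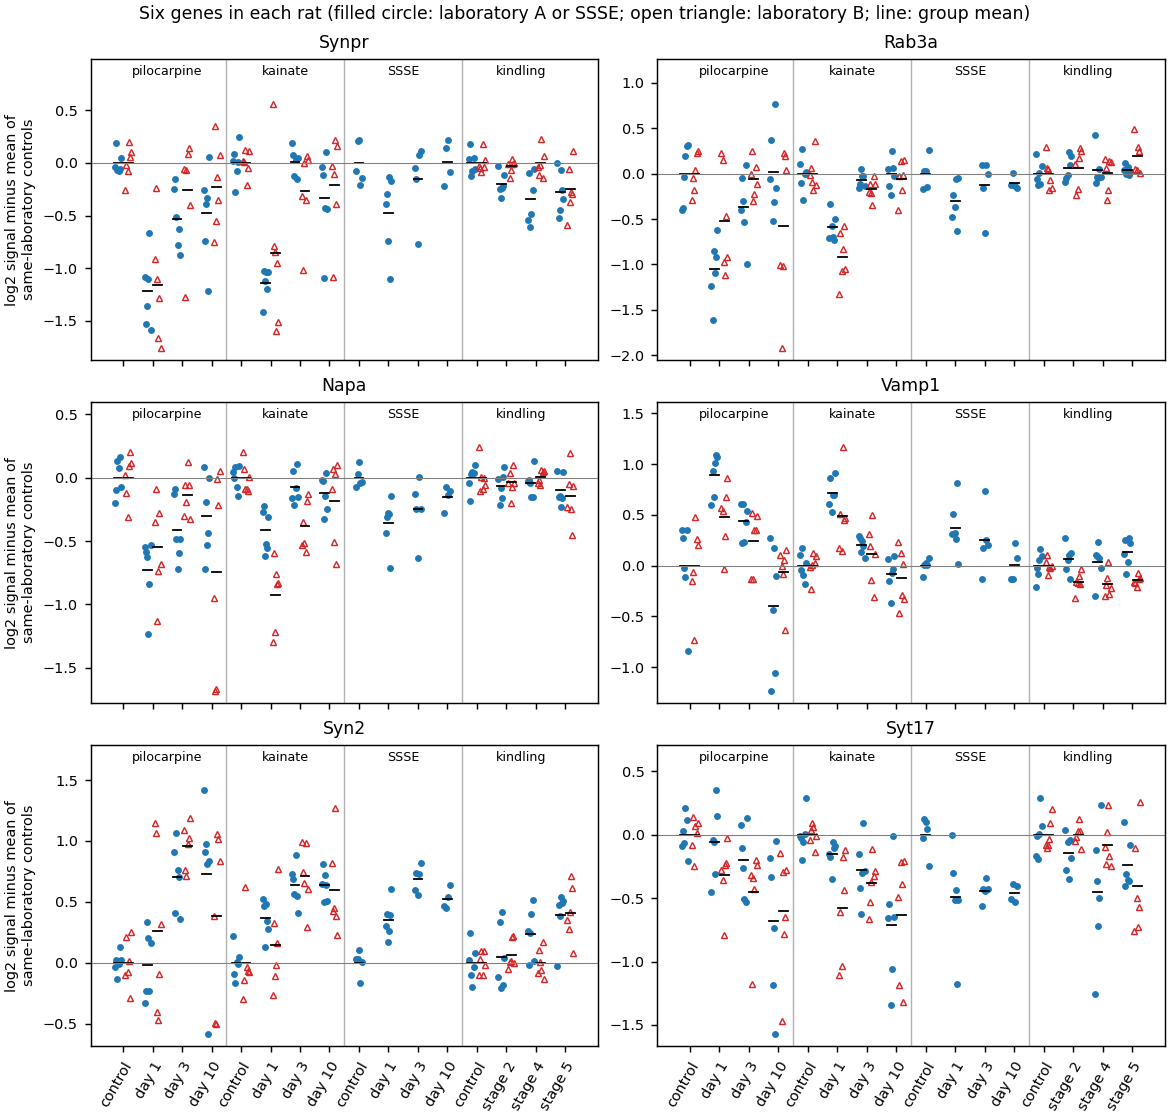
Each rat's log2(signal + 16) minus the mean of the controls of its laboratory, for Synpr, Rab3a, Napa, Vamp1, Syn2 and Syt17 in 4 models; circles are laboratory A or SSSE, triangles laboratory B, and short lines group means. Day 1 rats sit low for Synpr, Rab3a and Napa and high for Vamp1, while most Syn2 points of days 3 and 10 lie above the controls.

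Syn1, the other synapsin measured, rose at day 1 of SSSE, where its controls read 9.39, 9.19, 9.31, 9.15 and 9.38 and the day 1 rats 9.49 to 10.24 with a median of 10.01. All 6 rats lay above the controls, and a second probe set also rose (0.54, adjusted p = 0.028). At day 1 of kainate Syn1 rose by 0.43 ± 0.15, from 8.18, 8.75 and 9.25 to 9.17, 9.28 and 9.64 in laboratory A and from 7.62, 8.63 and 8.99 to 8.07, 8.69 and 9.45 in laboratory B, with 6 of 12 rats above their controls, and the second probe set rose by 0.43 (adjusted p = 0.00053). The spread was wide in pilocarpine, where controls of laboratory A ran from 6.77 to 9.15, and the change of 0.67 at day 1 did not pass. Sv2a, a vesicle glycoprotein and the binding site of the drug levetiracetam, rose at kindling stage 5 (0.37 ± 0.07), with 9 of 12 rats above their controls. For its relative Sv2b the change was 0.50 ± 0.22 at day 1 of pilocarpine (adjusted p = 0.078), while a second probe set of Sv2b rose there by 0.86 (adjusted p = 0.0028). Syp, synaptophysin, rose by 0.19 ± 0.06 at day 1 of kainate. In a fit over all 28 groups that call was lost (adjusted p = 0.131), as were those of Syn1 at day 1 of SSSE (0.166) and of kainate (0.0631).

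Of the calcium sensors, Syt17, a divergent synaptotagmin, fell at day 10 of both drug models. It was already called lower at day 1 of kainate, with 6 of 12 rats below their controls. The means there were 10.13 against 10.28 in controls of laboratory A and 9.63 against 10.21 in laboratory B. In kainate laboratory A the controls read 10.08, 10.26 and 10.57 (lowest, median and highest) and the day 10 rats 8.94, 9.63 and 10.27. Laboratory B read 10.07, 10.22 and 10.30 in controls and 8.89, 9.77 and 10.00 at day 10. So 11 of 12 rats lay below their controls, and the change was -0.67 ± 0.12 (adjusted p = 0.00027). After pilocarpine the day 10 change was -0.64 ± 0.14 (adjusted p = 0.0029), with 9 of 12 rats below their controls. The SSSE controls read 10.19, 10.34, 10.32, 10.26 and 9.97, the day 3 rats 9.65, 9.79, 9.77, 9.87 and 9.79, and the day 10 rats 9.71, 9.83, 9.68 and 9.82. These groups did not overlap, yet the brightest probe set missed the threshold at both times, while a second one passed at day 3 (-0.81, adjusted p = 0.015). That second probe set also fell at day 10 of kainate (-0.79) and of pilocarpine (-0.61). The SSSE day 1 call of Syt17 was lost without control rat 2, 3 or 4 (adjusted p = 0.0619, 0.0594 and 0.0508) and in a fit over all 28 groups (0.0780).

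Syt4, a synaptotagmin of dense core and postsynaptic vesicles, fell in the kainate model. In laboratory A its controls read 10.25, 10.37 and 10.59 and the day 1 rats 9.43, 9.62 and 9.79, and in laboratory B 11.08, 11.11 and 11.32 against 9.62, 10.18 and 10.29. All 12 day 1 rats lay below their controls (-0.92 ± 0.12, adjusted p = 2.4e-08), and all 12 day 3 rats did too (-0.41 ± 0.12, adjusted p = 0.025). The day 3 call was lost in a fit over all 28 groups (adjusted p = 0.0653). In pilocarpine the day 1 rats of laboratory A spread from 9.45 to 12.10 around controls of 10.53 to 11.06, and the model's change did not pass. Syt5, a calcium sensor of dense core vesicles, rose at day 1 of kainate (0.39 ± 0.12) and of SSSE (0.57 ± 0.15). The SSSE call of Syt5 ended without control rat 2 (adjusted p = 0.0566). Syt12, which does not bind calcium, rose at day 10 of pilocarpine (0.62 ± 0.17), with 8 of 12 rats above their controls. That call was lost without the day-1-like rats (0.59, adjusted p = 0.0989). Syt1, the main fast calcium sensor, is read here by a dim probe set, above the array median in 48 of 164 rats, and it passed in no comparison, with day 1 changes of 0.05 ± 0.12, -0.19 ± 0.09 and -0.00 ± 0.09 in pilocarpine, kainate and SSSE. In kainate laboratory A it read 5.21, 5.39 and 5.51 in controls and 5.06, 5.18 and 5.60 at day 1, which overlap.

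Among the SNARE proteins, Vamp1 rose at day 1 while Vamp2 did not pass in any comparison with control. In kainate laboratory A Vamp1 read 9.49, 9.66 and 9.84 in controls and 10.19, 10.36 and 10.58 at day 1, and in laboratory B 9.36, 9.61 and 9.72 against 9.74, 10.05 and 10.77. All 12 day 1 rats lay above their controls (adjusted p = 6.3e-07). After pilocarpine 10 of 12 did (adjusted p = 0.00037), with 9.92, 10.30 and 10.41 at day 1 against 8.48, 9.45 and 9.68 in controls of laboratory A. In SSSE 5 of 6 day 1 rats were above the controls, but the change of 0.37 did not pass. Its other 2 probe sets disagreed with each other after kainate (0.75, adjusted p = 3.1e-06, and -0.04, adjusted p = 0.76), and neither passed after pilocarpine.

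Complexins bind the assembled SNAREs and hold them until calcium enters. Cplx1 fell at day 1 of kainate, from 9.92, 10.23 and 10.59 in controls of laboratory A to 9.53, 9.60 and 9.94, and from 9.87, 9.94 and 10.16 in laboratory B to 8.92, 9.32 and 9.63. All but 1 of the 12 rats lay below their controls (adjusted p = 8.0e-08), yet a second Cplx1 probe set changed by -0.07 (adjusted p = 0.61). Cplx2 fell in both drug models, with 8 of 12 rats below their controls after pilocarpine and 7 of 12 after kainate. Snap25, the plasma membrane SNARE, changed little: at day 1 of kainate it fell by 0.16 ± 0.06 on the log2 scale, from 11.60, 11.66 and 11.82 in controls of laboratory A to 11.38, 11.56 and 11.74, and from 12.15, 12.18 and 12.56 in laboratory B to 11.97, 12.08 and 12.14. That call ended under quantile normalization (adjusted p = 0.178). Stx1a and Vamp2 passed in none of the 12 comparisons with control.

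The SNARE recycling factors moved apart from each other. Napa (alpha-SNAP, which brings NSF to used SNARE complexes) read 11.10, 11.26 and 11.34 in kainate A controls and 10.63, 10.83 and 11.02 at day 1, and in laboratory B 11.40, 11.47 and 11.71 against 10.21, 10.67 and 10.91. All 12 day 1 rats lay below their controls (adjusted p = 6.7e-09), as did 10 of 12 after pilocarpine (adjusted p = 0.00085). In SSSE the controls read 10.97, 11.07, 11.16, 11.00 and 11.00 and the day 1 rats 10.33 to 10.89 with a median of 10.74, so that these 6 lay below the controls. The adjusted p there was 0.032, and it was 0.0528 to 0.0748 without control rat 2 or 3 or day 1 rat 1, 2 or 5. In a fit over all 28 groups it was 0.124. Napa was also called lower at day 10 of pilocarpine (-0.52 ± 0.15), where laboratory B ran from 9.92 to 11.66. Without the day-1-like rats that change was -0.18 (adjusted p = 0.539). Napb (beta-SNAP, the form found in brain) rose at day 1 (0.31 ± 0.12) and day 3 (0.56 ± 0.12) of pilocarpine. In laboratory A its controls read 10.33, 10.81 and 10.94 and the day 3 rats 11.03, 11.29 and 11.43, and in laboratory B 10.72, 10.93 and 11.17 against 11.34, 11.42 and 11.66. All 12 day 3 rats and 8 of 12 day 1 rats lay above their controls. The day 1 call of Napb was lost under quantile normalization (adjusted p = 0.0736). Nsf itself passed in none of the 12 comparisons.

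Within a rat, Napb minus Napa compares related genes on 1 array. It is 1 of 6 pairs formed with earlier results known, so the 72 permutation tests run over them are not drawn on and the differences are descriptions. Relative to controls it was higher by 0.94 at day 1 of pilocarpine, with 10 of 12 rats above the range of their controls, and by 0.88 at day 1 of kainate, with 12 of 12. In SSSE it was higher by 0.71 at day 1, with 6 of 6 rats above the controls, and by 0.67 at day 3, with 5 of 5. At kindling stages 2, 4 and 5 the values were 0.11, 0.09 and 0.27. Vamp1 minus Vamp2 was higher by 0.69 and 0.57 at day 1 of pilocarpine and kainate, with 8 of 12 rats above their controls in each. This pair did not keep its sign. At day 10 of kainate Vamp1 averaged 9.59 against 9.67 in controls of laboratory A and 9.48 against 9.60 in B. Vamp2 averaged 10.50 against 10.38 and 10.08 against 9.94 there. Syn2 minus Syn1 went the other way with time, at -0.55, 0.54 and 0.79 on days 1, 3 and 10 of pilocarpine, with wide spread among the pilocarpine controls. The other 3 pairs changed sign over the 12 comparisons as well: Cplx1 minus Cplx2 ran from -0.67 to 0.55, Sv2b minus Sv2a from -0.65 to 0.76, and Slc17a6 minus Slc17a7 from -0.37 to 0.66.

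**Figure D3:**
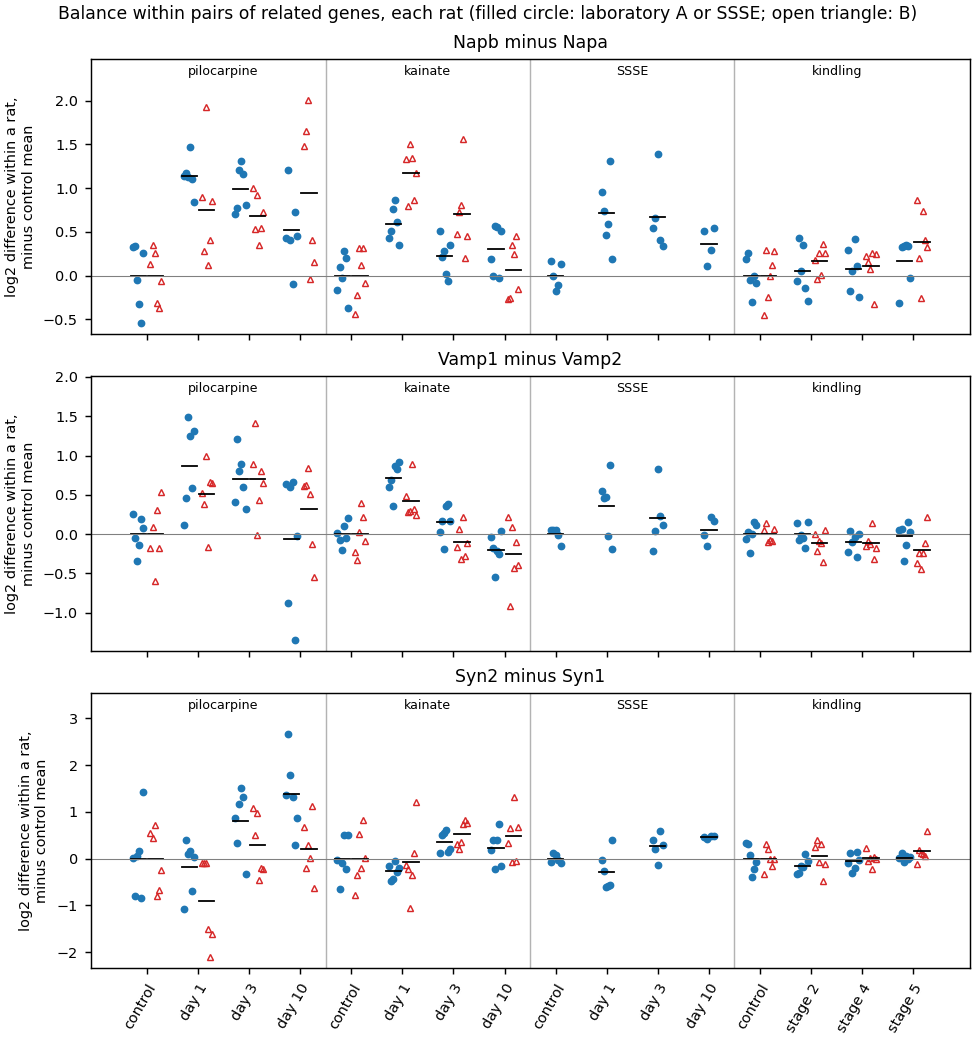
Difference of log2(signal + 16) between related genes within each rat, minus the mean of the controls of its laboratory, for Napb minus Napa, Vamp1 minus Vamp2 and Syn2 minus Syn1; circles are laboratory A or SSSE, triangles laboratory B, and lines group means. For Napb minus Napa all 12 kainate day 1 rats and all 6 SSSE day 1 rats lie above their controls.

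At the active zone the small GTPase Rab3a, which marks vesicles for docking, fell in both drug models. In pilocarpine laboratory A it read 10.50, 10.99 and 11.22 in controls and 9.29, 9.90 and 10.28 at day 1, and in laboratory B 10.43, 10.72 and 10.98 against 9.61, 10.03 and 10.95. In kainate laboratory A the controls read 10.36, 10.65 and 10.91 and the day 1 rats 9.92, 10.01 and 10.31, and in laboratory B 10.75, 10.88 and 11.29 against 9.60, 9.99 and 10.35. So 10 of 12 pilocarpine rats and 12 of 12 kainate rats lay below their controls (adjusted p = 0.00094 and 6.9e-11), and a second Rab3a probe set fell in both (-0.91 and -0.55, adjusted p = 0.0025 and 0.0021). The scaffold Bsn (bassoon) passed in none of the 12 comparisons, with day 1 changes of -0.03 ± 0.14, 0.02 ± 0.10 and 0.16 ± 0.08 in pilocarpine, kainate and SSSE. In kainate laboratory A its day 1 rats overlapped the controls, reading 10.90, 11.08 and 11.20 against 10.69, 11.10 and 11.31. In SSSE 5 of 6 day 1, 4 of 5 day 3 and 3 of 4 day 10 rats lay above every control and none below. Rims1, Rims2 and Rab3c passed in none either. Rims1 and Rims2 were dim, above the array median in 9 and 21 of 164 rats.

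Of the vesicular glutamate transporters, Slc17a7 (VGLUT1, the form of most cortical glutamate neurons) rose at kindling stage 5. In laboratory A it read 9.63, 10.14 and 10.15 in controls and 10.03, 10.36 and 10.60 at stage 5, and in laboratory B 10.38, 10.58 and 10.67 against 10.69, 10.75 and 10.95. All but 1 of the 12 rats lay above their controls (0.29 ± 0.06, adjusted p = 0.0035). After status epilepticus its changes were -0.24 to 0.10 and none passed. Slc17a6 (VGLUT2) varied so widely among controls, from 4.92 to 8.46 in pilocarpine laboratory A, that its standard errors were 0.31 to 0.44, and it passed in no comparison with control.

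Of the endocytic genes, Snap91 (AP180, a clathrin assembly protein) rose at days 1, 3 and 10 of kainate by 0.17 ± 0.06, 0.28 ± 0.06 and 0.28 ± 0.06, and at kindling stage 5 by 0.22 ± 0.05. In a fit over all 28 groups Snap91 missed the threshold at day 1 of kainate (adjusted p = 0.0668). At day 10 of kainate it read 11.18, 11.37 and 11.50 against 10.96, 11.14 and 11.28 in controls of laboratory A, and 11.58, 11.63 and 11.69 against 10.95, 11.31 and 11.50 in laboratory B, so that 10 of 12 rats lay above their controls. Dnm1 (dynamin, which pinches vesicles off) fell at day 1 of both drug models and rose at stage 5 (0.17 ± 0.05), where the call was lost under quantile normalization (adjusted p = 0.507). Synj1, a lipid phosphatase that uncoats vesicles, rose at day 3 of pilocarpine (0.31 ± 0.11, adjusted p = 0.047). That call was lost under quantile normalization (adjusted p = 0.0816) and without the filter on dim signals (0.0569). Amph and Sh3gl2 passed in none of the 12 comparisons, and Sh3gl2 was above the array median in 23 of 164 rats. It read 4.39, 5.04 and 5.36 in kainate A controls and 4.79, 5.22 and 5.55 at day 1.

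By day 3 and day 10 few release genes were called. In the pilocarpine model 3 rose and 0 fell at day 3, or 8.82%, where 11.7% of all genes passed (7.74% higher, 3.92% lower). At its day 10 2 rose and 2 fell, or 11.8%, where 8.93% passed (3.82% higher, 5.11% lower). In the kainate model 2 rose and 1 fell at day 3 (8.82%, all genes 7.97%, of them 4.67% higher and 3.3% lower), and 2 rose and 1 fell at day 10 (8.82%, all genes 6.28%, of them 2.57% higher and 3.71% lower). In SSSE Syn2 alone passed at day 3 (2.94%, all genes 3.14%, of them 1.66% higher and 1.48% lower) and at day 10 (2.94%, all genes 0.344%, of them 0.177% higher and 0.167% lower). Syn2 was the 1 release gene called at both later times in all 3 models of status epilepticus, but as given above its day 10 calls in pilocarpine and SSSE, and its SSSE day 3 call, ended under other settings. Cell type markers differed from control at these times too. At day 3 of pilocarpine 6 of 8 microglial and 3 of 7 astrocyte markers were higher and 3 of 6 granule cell markers lower. At day 3 of kainate 7 of 8 microglial and 2 of 7 astrocyte markers were higher and 2 of 6 granule cell markers lower. At day 10 granule cell markers were lower in 2 of 6 after pilocarpine and 3 of 6 after kainate, and microglial markers higher in 2 and 3 of 8. In SSSE 2 of 8 microglial markers were higher at day 3. Their part in the later calls was not tested.

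Direct comparisons between times tested whether levels differed from those at day 1. No controls enter them, so they do not tell a return to control from a move away from it. In the kainate model 8 release genes were higher and 1 lower at day 3 than at day 1, where 31.1% of all genes passed (15.3% higher, 15.8% lower). At day 10 9 were higher and 1 lower, where 33% passed (14.2% higher, 18.8% lower). Rab3a was higher at day 10 than at day 1 by 0.72 ± 0.08 (adjusted p = 5.2e-10), Synpr by 0.73 ± 0.16, Syt4 by 0.72 ± 0.12, Cplx1 by 0.69 ± 0.09 and Napa by 0.52 ± 0.08. Vamp1 was lower, by -0.70 ± 0.09 (adjusted p = 4.9e-08). For pilocarpine 7 were higher and 1 lower at day 3 than at day 1 (23.2% of all genes passed, 14% higher and 9.13% lower), led by Cplx1 (0.81 ± 0.16), Synpr (0.79 ± 0.15) and Syn2 (0.71 ± 0.18). At its day 10 3 were higher and 3 lower than at day 1 (15.9% of all genes passed, 6.91% higher and 9.02% lower), and the lower genes were Vamp1 (-0.92 ± 0.15), Syn1 (-0.91 ± 0.28) and Syt17 (-0.45 ± 0.14). Without 6 rats unlike their group the Syn1 and Syt17 calls were lost (-0.69, adjusted p = 0.110, and -0.30, adjusted p = 0.117). So were the rises of Cplx2 (0.42, adjusted p = 0.183) and Syt12 (0.38, adjusted p = 0.172). Without the day-1-like rats Syn1 was at -0.59 (adjusted p = 0.154) and Syt12 at 0.47 (adjusted p = 0.0803). Syt12 was also lost with a pseudocount of 1 (0.0560) and with no filter on dim signals (0.0570), and Cplx2 with a replicate block (0.0545). In SSSE limma called 0 at day 3 against day 1 (0.604% of all genes; 7 release genes had an unadjusted p under 0.05), and at day 10 Cplx1 was higher (0.56 ± 0.14) and Syn1 (-0.57 ± 0.13) and Syt5 (-0.64 ± 0.16) were lower, where 5.85% passed (3.52% higher, 2.32% lower), and 0 of the 3 passed without day 1 rat 3, whose labels conflict. The SSSE day 10 calls were not firm. The count was 0 without day 1 rat 2 or 3 or day 10 rat 1, 3 or 6, 1 without day 1 rat 5 or day 10 rat 2, and 5 without day 1 rat 6. Markers differed over the same times: against day 1, granule cell markers were higher in 5 of 6 at both day 3 and day 10 of kainate, and in 4 of 6 at day 3 and 3 of 6 at day 10 of pilocarpine. Astrocyte markers were higher in 6 of 7 at both times of kainate, with 1 lower at day 10, and in 7 of 7 at day 3 and 1 of 7 at day 10 of pilocarpine. At day 10 of SSSE 1 of 6 granule cell and 3 of 7 astrocyte markers were higher than at day 1. Their part in these differences was not tested.

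In kindled rats 0 of 34 release genes passed at stage 2 and 0 at stage 4, by limma, where 0% of all genes passed at either stage. At an unadjusted p under 0.05 there were 0 at stage 2 and 4 at stage 4, namely Slc17a7 (0.15), Syt12 (0.37), Synpr (-0.17) and Syt17 (-0.27). At stage 5 (12 rats against 12 controls) 5 rose and 1 fell, or 17.6%, where 7.1% of all genes passed (3.23% higher, 3.87% lower). The rises were Syn2, Sv2a, Slc17a7, Snap91 and Dnm1, proteins of the vesicle and its recycling, and the fall was Synpr. In a fit with 1 spread over all 28 groups every one of these calls but that of Sv2a was lost (adjusted p of 0.0945 for Syn2, 0.178 for Slc17a7, 0.182 for Snap91, 0.536 for Synpr and 0.548 for Dnm1), and Snap91 was also lost under quantile normalization (0.0508). The median change of the 34 genes was 0.11. Of the granule cell markers 2 of 6 were lower at stage 5. In laboratory A their sums were 6534 to 7551 in controls (median 7197) and 5374 to 6722 at stage 5 (median 5968). In laboratory B they were 7367 to 8733 in controls (median 8506) and 6965 to 10209 at stage 5 (median 8389). The part of these markers was not tested.

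The laboratories of a model were compared directly. Every release gene called in a model had the same sign in both of its laboratories. Calls were made on the mean change of both laboratories, which favours genes of 1 sign, so this is a description and not a test. Differences between laboratories in the day 1 change passed for 0 release genes in pilocarpine (0% of all genes; 3 at an unadjusted p under 0.05 by limma) and 0 in kainate (0.00929% of all genes; 3 unadjusted), and for 0 at stage 5 of kindling (0% of all genes; 2 unadjusted). For Napa at day 1 of kainate, where the laboratories differed in the first dose and in how long the seizure lasted, the changes were -0.42 ± 0.12 in A and -0.92 ± 0.12 in B. Their difference of -0.51 had an unadjusted p of 0.0039 and an adjusted p of 0.445 by limma. Between kainate and pilocarpine the day 1 change differed for 0 release genes (3.63% of all genes passed; 3 release genes had an unadjusted p under 0.05, namely Sh3gl2, Sv2a and Syt4).

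**Figure D4:**
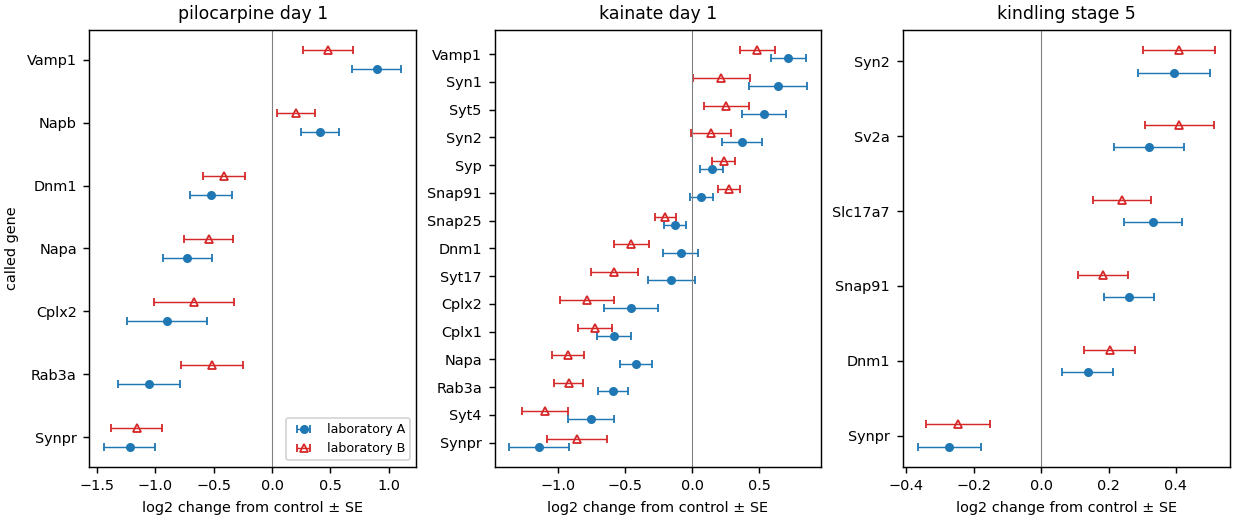
Log2 change from control with its standard error for each release gene called at day 1 of pilocarpine, day 1 of kainate and stage 5 of kindling, in laboratory A (circles) and laboratory B (triangles). Each gene has the same sign in both laboratories, where the calls were made on the mean of both. Napa after kainate reads -0.42 in A and -0.92 in B.

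**Figure D5:**
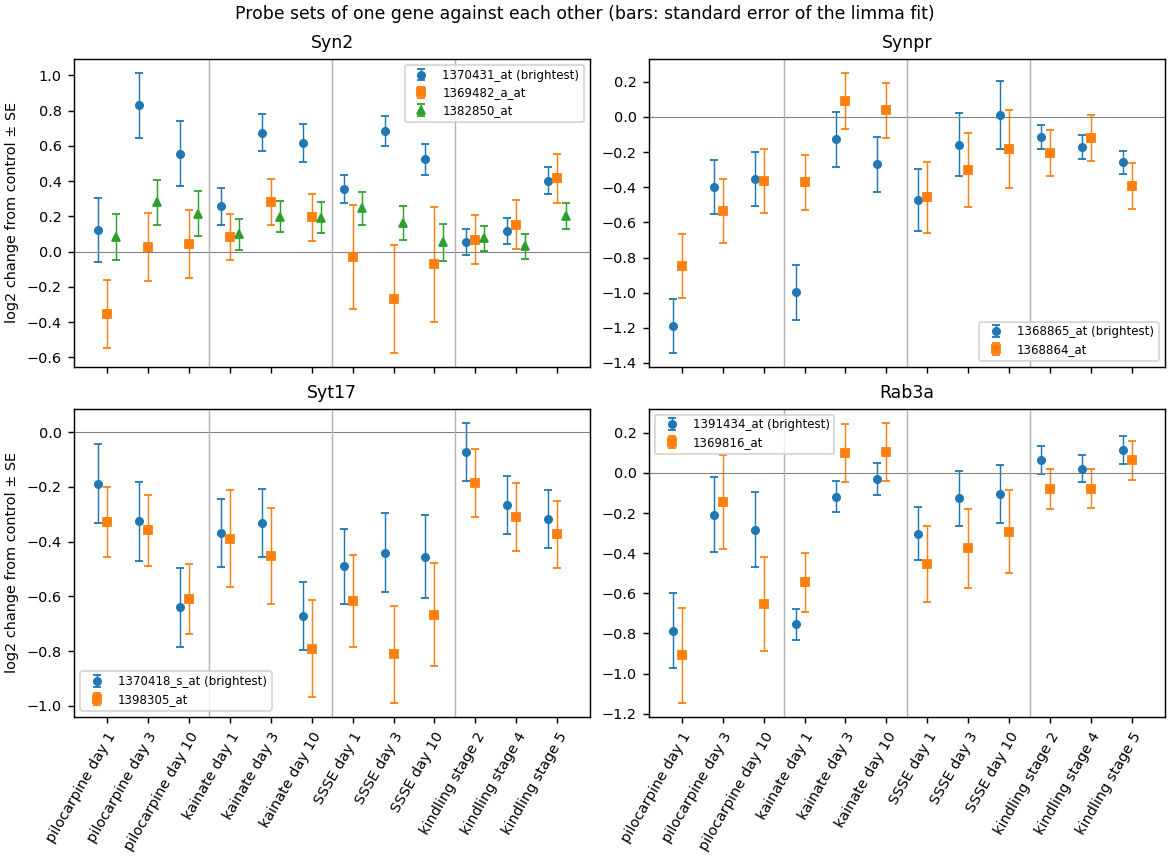
Log2 change from control with its standard error for each probe set of Syn2, Synpr, Syt17 and Rab3a in 12 comparisons; circles mark the brightest probe set, squares and triangles the others. The brightest Syn2 probe set reads 0.83 at day 3 of pilocarpine, where the others read 0.03 and 0.28, while the probe sets of Syt17 read below 0 in every comparison.

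Promoters are shown for Napa, Syn1 and Vamp1, members called at day 1 that carry the same motif, and for Synpr, the member with the largest fall, which does not. The sequences are the 250 bases before the RefSeq start in the GRCr8 build, 5' to 3' on the gene's strand, with every TGACG and its reverse CGTCA in capitals. The palindrome TGACGTCA is the cAMP response element (CRE), bound by CREB family factors.
Napa: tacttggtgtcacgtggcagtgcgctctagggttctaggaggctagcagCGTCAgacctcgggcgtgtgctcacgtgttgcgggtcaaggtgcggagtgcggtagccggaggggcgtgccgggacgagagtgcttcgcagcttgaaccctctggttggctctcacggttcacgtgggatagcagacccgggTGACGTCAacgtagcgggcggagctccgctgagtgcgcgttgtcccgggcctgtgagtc
Syn1: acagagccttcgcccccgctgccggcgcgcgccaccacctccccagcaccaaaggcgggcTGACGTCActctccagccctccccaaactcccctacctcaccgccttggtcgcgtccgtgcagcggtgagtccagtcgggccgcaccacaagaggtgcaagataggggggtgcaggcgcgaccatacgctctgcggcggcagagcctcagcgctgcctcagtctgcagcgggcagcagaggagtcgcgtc
Vamp1: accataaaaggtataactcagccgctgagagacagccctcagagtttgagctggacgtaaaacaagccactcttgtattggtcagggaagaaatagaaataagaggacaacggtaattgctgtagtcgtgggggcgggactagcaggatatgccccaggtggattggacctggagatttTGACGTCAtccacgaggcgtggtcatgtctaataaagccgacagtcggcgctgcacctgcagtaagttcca
Synpr: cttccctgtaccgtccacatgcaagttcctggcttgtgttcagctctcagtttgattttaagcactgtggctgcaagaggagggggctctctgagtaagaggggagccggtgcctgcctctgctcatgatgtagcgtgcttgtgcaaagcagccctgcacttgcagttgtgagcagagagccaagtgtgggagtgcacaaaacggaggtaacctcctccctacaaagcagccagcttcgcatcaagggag
These windows are chr1:85915185-85915434 (plus strand) for Napa, chrX:3725495-3725744 (plus) for Syn1, chr4:159698644-159698893 (plus) for Vamp1 and chr15:14182358-14182607 (minus) for Synpr. Promoters were at hand for 32 of 43 members and for 33469 starts in all. TGACGTCA stood in 4 of the 32 (12.5%; Napa, Syn1, Vamp1 and Sh3gl2) and in 1.59% of all promoters, and it began at base -59 in Napa, -71 in Vamp1 and -190 in Syn1. TGACG on either strand, which overlaps it, stood in 12 (37.5%) and in 18.2% of all. Of the REST element the part TTCAGCACC stood in 0 of the members and 0.305% of all, and GGACAG in 7 (21.9%) and 18.2% of all. Motifs beyond these 250 bases, or cut by their edge, were not counted, so 0 does not mean that a gene lacks the element. The AP-1 motif TGANTCA stood in 0 and in 6.34% of all. Napa fell, Vamp1 and Syn1 rose and Sh3gl2 did not pass at day 1, so these matches are a description of letters and not of binding.

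Other genes of the same pathway give the setting, from a list of 95 of which 73 were measured: syntaxins, further synaptotagmins, vesicle proton pump subunits, clathrin adaptors and priming factors. At day 1 of pilocarpine 15 of 73 rose and 10 fell, led by Ap2a2 (0.66 ± 0.14) and Sh3glb1 (0.61 ± 0.15) and by Rab3d (-0.93 ± 0.16) and Rab27b (-0.60 ± 0.16). At day 1 of kainate 14 rose and 14 fell, led by Rab3b (0.75 ± 0.17) and Stx4 (0.62 ± 0.13) and by Cadps2 (-1.55 ± 0.15), a priming factor of dense core vesicles, and Stxbp6 (-0.86 ± 0.08). In SSSE 1 rose at day 1 (Cltb, 0.31 ± 0.09) and 2 fell, Sncb (-0.48 ± 0.14) and Snap23 (-0.34 ± 0.11). Of all genes 32.1% passed at day 1 of pilocarpine, 41.6% at day 1 of kainate and 12.5% at day 1 of SSSE. Later, 8 rose and 0 fell at day 3 of pilocarpine, led by Cadps2 (0.70 ± 0.24) and Unc13c (0.62 ± 0.19), and 2 rose and 4 fell at its day 10. In kainate 3 rose and 2 fell at day 3, and 4 rose and 1 fell at day 10. At kindling stage 5 6 rose and 1 fell, among them the proton pump subunits Atp6v0c, Atp6v1a and Atp6v1d. Of all genes 11.7% and 8.93% passed at days 3 and 10 of pilocarpine, 7.97% and 6.28% at those of kainate, and 7.1% at stage 5. The counts among the 73 were not tested against these shares.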

How the data were processed

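RNA from laser-captured dentate granule cells of 164 rats was measured on 172 one-colour Affymetrix arrays. The authors deposited an intensity for every probe set, made with MAS5 per the submitters' processing notes. Each array had been scaled to a trimmed mean of 150.04 to 150.06, leaving out 2% of probe sets at each end. The lowest and highest array medians were 28.0 and 54.2 in signal units.

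Of 31099 probe sets, those with 1 gene symbol that lay above their array's median in at least 6 rats were kept, 14281 in all, for 10759 genes. The brightest probe set stood for a gene. To each signal 16 was added before log2, so folds of dim genes are understated. In 8 rats with a repeated array both were averaged, with correlations of 0.950 to 0.996. Each model was fitted in limma 3.58.1 (R 4.3.3) with 1 mean per group, changes were averaged over laboratories, and p was adjusted by the Benjamini-Hochberg method at 0.05. Groups held 4 to 6 rats, and their number limits the precision. Ranges of rats were compared within a laboratory, except that the granule cell marker sums of the drug models pooled both laboratories. Figures were drawn with matplotlib 3.10.9.

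Up to 5 called rises and 5 called falls were named per comparison. Values by rat are given for the 2 genes of each role with the largest mean absolute change after status epilepticus, and for Syn1, Snap25, Syt1 and Slc17a7. Other called genes were named after their values were seen. The members, lists and pairs were chosen with earlier results of these data known. Alternatives were other normalizations, pseudocounts, filters and probe set rules, 1 fit over all groups, a replicate block, and fits without doubted rats.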

Additional observations from a re-analysis of the deposited data

Results flagged for a closer look

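The highest or lowest rat was set against its neighbours by Dixon's criterion in 115 sets of 4 to 6 rats. Each set was 1 group read for 1 gene with values by rat, or for the mean change of the 34 release genes. It picked out 9 values, and chance picks about 1 in 20 sets. The same rats enter several sets, so the picks are not independent. They were Cplx1 in kainate A day 1 rat 6 (9.94, nearest 9.61), Vamp1 in kainate B day 1 rat 4 (10.77, nearest 10.11) and Syn2 in kainate B control rat 3 (9.89, nearest 9.24), each the highest of its group. The lowest of their groups were Napb in pilocarpine A day 3 rat 6 (11.03, nearest 11.28), Syn2 in kindling A stage 5 rat 1 (9.98, nearest 10.38) and Snap91 in kindling B stage 5 rat 3 (10.87, nearest 11.19). The mean change of the 34 genes was lowest in kainate A day 10 rat 3 (-0.0886, nearest 0.0648) and in kindling A stage 5 rat 1 (0.0328, nearest 0.0981), and highest in kindling B stage 4 rat 4 (0.0687, nearest -0.0266).

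The change differed between times, by limma's contrast of the times themselves, for 8 release genes at day 3 and 6 at day 10 against day 1 of pilocarpine, for 9 and 10 in kainate, and for 3 at day 10 of SSSE. Of all genes 23.2% and 15.9% passed there in pilocarpine, 31.1% and 33% in kainate and 5.85% in SSSE. The counts among 34 release genes lay near these shares.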

How the results depend on the processing

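Over 11 alternatives no called release gene changed sign in the 84 calls followed. Counts moved by over 1.5 times as follows. With quantile normalization SSSE day 1 gave 8 (5 in the main analysis), and with a pseudocount of 64 SSSE day 3 gave 2 and SSSE day 3 against day 1 gave 1. With the mean of a gene's probe sets SSSE day 10 gave 0. With the first array of a repeated rat pilocarpine day 1 gave 11, its day 3 gave 5 and kainate against pilocarpine gave 1. With 1 spread shared by all 28 groups, SSSE day 1, day 10 and day 10 against day 1 gave 1, 0 and 1, kindling stage 5 gave 1, pilocarpine days 1, 3 and 10 gave 15, 10 and 9, and its days 3 and 10 against day 1 gave 13 and 18, and 17 of the 84 calls missed the threshold. Without the rats with contradictory labels SSSE day 10 against day 1 gave 0. Without 6 rats unlike their group SSSE day 1 gave 8. Without the 4 day-1-like rats, a cut chosen after the data were seen, SSSE day 1 gave 8, pilocarpine day 10 gave 2 and its day 10 against day 1 gave 11. Leaving out each SSSE rat in turn gave 2 to 9 at day 1 (2 when control rat 2 was left out, 3 for control rat 3, 9 for day 1 rat 6, 8 for day 3 rat 4), 1 to 3 at day 3, 0 to 1 at day 10 (0 without day 10 rat 6), 0 to 3 for day 3 against day 1 and 0 to 5 for day 10 against day 1.

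Rat numbers were not taken as pairs, and the main fits carry no term for them. Of 240 same-numbered pairs 88, not all, correlated above 0.1, which does not settle whether rats of 1 number shared a batch. Still, 50 of 164 rats correlated best with their own number where 27.2 are expected by chance, and the median correlation was 0.068 for the same number and -0.016 for other numbers, a hint from the data and not the design. A replicate block gave 5 in kainate day 3, 2 in SSSE day 3 and 1 in SSSE day 10 against day 1, and 5 of the 84 calls missed the threshold with it. Probe sets with control means of 5.02 to 5.78 in log2 limit Sh3gl2, Doc2b, Rims1, Rims2, Syt11, Syt1, Rab3c, Amph and Syt12.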
